A study of Homo sapiens with 13 samples.

Results

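The zinc finger genes that lie outside chromosome 19 were examined in HEK293T cells, a human embryonic kidney line, on Agilent Human 8x60K 2-colour arrays. A gene was included when its array symbol began with ZNF, ZSCAN, ZKSCAN or ZFP followed by a digit and its probe had a position in the array files (genome build 37.1) on a chromosome other than 19. This gave 242 genes with 268 probes, out of 573 such symbols on the array, 187 of which had a probe position on chromosome 19 and 196 of which had no position in the files. Of the 242 genes, 232 had a probe above background in at least 1 RNA group and were tested, among 28590 features in all. The 10 that were not tested were ZFP42, ZNF300P1, ZNF311, ZNF366, ZNF385D, ZNF454, ZNF645, ZNF718, ZNF804B and ZNF831.

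The arrays compared 3 treatments with their controls. The compound UNC0638 inhibits the histone methyltransferases G9a, encoded by EHMT2, and GLP, encoded by EHMT1; cells kept in 1 µM of it for 48 h were set against cells in an equal amount of DMSO, with 5 replicates on 7 arrays. WIZ is a C2H2 protein of the G9a and GLP complex, and cells were compared 72 h after transfection with WIZ siRNA or control siRNA, using 4 arrays for 2 replicates. The same comparison for siRNA against G9a, also at 72 h, used 2 arrays for 2 replicates. The labels name no clone of the line, and they do not say whether both siRNAs shared control RNA. UNC0638 replicates 1 and 2 and the WIZ siRNA replicates were hybridised in both dye orientations, while UNC0638 replicates 3 to 5 and G9a siRNA had the treated RNA in Cy5 alone, so that for G9a siRNA the dye and the treatment cannot be told apart. The same arrays also split by the lowest pixel SD of their Cy3 background. UNC0638 replicates 1 and 2 and WIZ siRNA formed array set 1, and UNC0638 replicates 3 to 5 and G9a siRNA formed array set 2.

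Each targeted transcript was low with its own siRNA. EHMT2 lay at -1.67 and -1.65 (log2 ratio) in the G9a siRNA replicates, and WIZ lay at -2.26 and -1.97 in the WIZ siRNA replicates. The 7 markers of HEK293T cells that were looked up (PAX2, CDH2, VIM, KRT8, KRT18, NEFL and NEFM) were above background on all arrays. Among markers of other cell types, COL1A1 (fibroblasts), CDH5 (endothelium) and DES (muscle) were above background on all arrays. PTPRC, CD3E, ALB, APOB, COL3A1, PECAM1 and MYH7, of blood, liver, fibroblasts, endothelium and muscle, were so on only part of them, at a mean log2 brightness of 6.49 to 7.47. COL3A1 was higher with UNC0638 (0.25, adjusted p = 0.0345, limma) and CDH5 with G9a siRNA (0.42, adjusted p = 0.0132, limma), while KRT18 was lower with G9a siRNA (-0.50, adjusted p = 0.0069, limma), and their part in the results below was not tested. Between 209 and 230 of the 232 genes were above background in a channel of an array.

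Most proteins named ZNF or ZSCAN carry tandem C2H2 zinc fingers, each of which folds around a zinc ion and reads a few bases of DNA. Many also carry a KRAB domain, which recruits the corepressor TRIM28 and, through it, the histone H3 lysine 9 methyltransferase SETDB1. Human C2H2 genes lie to a large extent in gene clusters on chromosome 19, and smaller clusters and lone genes are spread over the other chromosomes. G9a and GLP place mono- and dimethylation on histone H3 lysine 9, and several C2H2 proteins, among them WIZ and ZNF644, are known partners of this enzyme pair. Some genes with these symbols work elsewhere, such as the CCCH proteins ZFP36L1 and ZFP36L2, which bind AU-rich mRNA.

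The probes that carry the results below differ in base content. In the sequences that follow, as given in the array files, capitals mark G and C. The first 5 belong to genes that fell with UNC0638 or WIZ siRNA, ZNF518A rose with UNC0638, and ZNF467 and ZFP37 had the lowest and the highest value with G9a siRNA.
ZNF879: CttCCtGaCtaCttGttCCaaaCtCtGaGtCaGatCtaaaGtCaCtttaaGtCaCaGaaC
ZNF502: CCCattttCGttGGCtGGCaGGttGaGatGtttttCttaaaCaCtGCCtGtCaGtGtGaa
ZNF107: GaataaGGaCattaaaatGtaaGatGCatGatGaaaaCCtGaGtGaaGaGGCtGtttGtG
ZNF10: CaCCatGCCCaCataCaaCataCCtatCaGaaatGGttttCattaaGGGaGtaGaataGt
ZNF594: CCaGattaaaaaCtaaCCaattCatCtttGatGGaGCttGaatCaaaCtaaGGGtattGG
ZNF518A: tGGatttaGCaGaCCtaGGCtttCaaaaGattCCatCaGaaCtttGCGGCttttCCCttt
ZNF467: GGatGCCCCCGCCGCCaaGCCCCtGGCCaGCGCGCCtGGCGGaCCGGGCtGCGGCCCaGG
ZFP37: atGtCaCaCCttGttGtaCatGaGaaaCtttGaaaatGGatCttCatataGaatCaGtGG
They lie on build 37.1 at chr5:178461245-178461304 (ZNF879, plus strand), chr3:44764280-44764339 (ZNF502, plus strand), chr7:64171177-64171236 (ZNF107, plus strand), chr12:133735529-133735588 (ZNF10, plus strand), chr17:5082909-5082968 (ZNF594, minus strand), chr10:97920015-97920074 (ZNF518A, plus strand), chr7:149462347-149462406 (ZNF467, minus strand) and chr9:115804852-115804911 (ZFP37, minus strand). ZNF467 has a probe with 50 G or C among its 60 bases (83.3%), whereas the other 7 probes shown have 21 to 27. Over all 232 genes the median probe had 40% G and C, against 43.3% over the 13847 tested features with a probe sequence.

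With UNC0638, 15 of the 232 genes fell and 3 rose (limma on all features, adjusted p below 0.05). Over all features 1.91% fell and 1.78% rose, against 6.47% and 1.29% of these genes. Here and below, all features include those with no probe sequence. A sequence was present for 13847 of the 28590 features and for all 232 genes, so these shares compare unlike sets. The 15 that fell were ZNF879, ZNF502, ZNF107, ZNF239, ZNF10, ZNF232, ZNF717, ZNF32, ZNF594, ZNF251, ZNF692, ZNF695, ZNF200, ZNF783 and ZNF514, and they lay on 10 of the 22 chromosomes with a member. All 15 were below 0 in each of the 5 replicates, as the plot of the genes that changed with UNC0638 shows. The median log2 ratio of the 232 genes was -0.02, against -0.01 over all features.

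**Figure D1:**
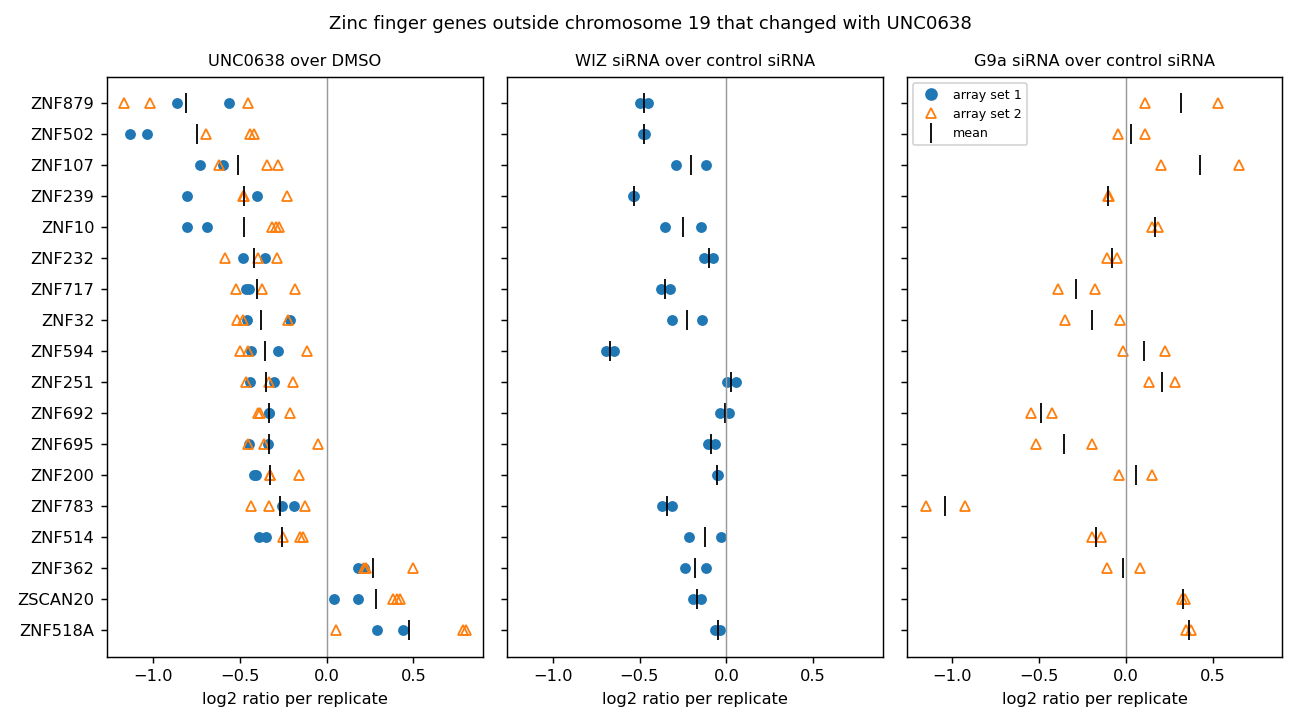
Log2 ratio (treated over control, horizontal axis) of the 18 genes that changed with UNC0638, in each replicate of the 3 treatments. Filled circles are replicates of array set 1, open triangles those of array set 2, and bars the mean; the 15 genes that fell lie left of 0 in all 5 UNC0638 replicates, and 13 of them lie left of 0 in both WIZ siRNA replicates.

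ZNF879, a KRAB zinc finger gene at 5q35.3, had log2 ratios of -0.86, -0.56, -0.45, -1.17 and -1.02 in UNC0638 replicates 1 to 5. The mean of -0.81 ± 0.30 (SD, n = 5) left 57.0% of the DMSO level (SE 0.11, adjusted p = 0.0032, limma). ZNF502, at 3p21.31, had -1.03, -1.13, -0.42, -0.69 and -0.44. Its mean of -0.74 ± 0.33 (SD, n = 5) left 59.7% (SE 0.11, adjusted p = 0.00484, limma), and it was lower in both replicates of array set 1 than in the 3 of set 2. Both genes have no second probe above background on the array.

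ZNF107, of the 7q11.2 cluster, averaged -0.51 ± 0.19 (SD, n = 5), with replicates from -0.73 to -0.28 and a median of -0.60. ZNF239, at 10q11.22, averaged -0.48 ± 0.21, with replicates from -0.80 to -0.23. ZNF10, at 12q24.33, whose KRAB domain (KOX1) is widely used as a repressor domain in engineered proteins, averaged -0.47 ± 0.25 with replicates from -0.81 to -0.28. Its second probe on the array gave a mean of -0.48. The other 10 falls were smaller, at -0.42 (ZNF232) to -0.26 (ZNF514). Second probes of ZNF594 and ZNF695 gave means of -0.05 and -0.06, against -0.36 and -0.33 for the brightest probes, so for these genes the size of the fall differed between probes.

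The 3 genes that rose were ZNF518A, ZSCAN20 and ZNF362. ZNF518A, which encodes a partner of G9a and GLP, had 0.29, 0.44, 0.80, 0.05 and 0.78 in UNC0638 replicates 1 to 5, and its mean was 0.47 ± 0.32 (SD, n = 5; 139% of the DMSO level, adjusted p = 0.0358, limma). A second probe of ZNF518A gave a mean of 0.07, so the size of the rise differed between probes. ZSCAN20 averaged 0.29 and ZNF362 averaged 0.27, with replicates of 0.04 to 0.42 and 0.18 to 0.50. For these rises, leaving out 1 replicate at a time, of any treatment, ended the call in 9 of 9 cases for ZNF362 and in 8 of 9 for ZNF518A and ZSCAN20, with the exceptions UNC0638 replicate 4 for ZNF518A and replicate 1 for ZSCAN20. Among the falls, ZNF695 and ZNF783 lost the call in 6 and 7 of 9 cases, ZNF32 and ZNF594 without UNC0638 replicate 1, 4 or 5, ZNF10 without replicate 2 and ZNF107 without replicate 4. The number of genes changed was 11 without UNC0638 replicate 1 or 2, and 18 (1 up, 17 down) without replicate 3. The shares of all features called without a replicate are not given here.

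The array sets differed in how much they gave. Fitted alone, set 1 called 34 of the 232 genes (3 up, 31 down) and set 2 called 0. The shares of all features called in these fits are not given here, so these counts cannot be set against the general rate. Set 1 holds replicates 1 and 2 with balanced dyes and set 2 holds replicates 3 to 5. For the 15 genes that fell, the set means ran from -1.08 to -0.22 in set 1 and from -0.88 to -0.18 in set 2, a description of genes that were called on the mean over both sets. Of the 232 genes, 49 had 1 direction in all 5 replicates.

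The zinc finger genes on chromosome 19 moved differently. In UNC0638 replicates 1 to 5 the median log2 ratio of the 232 genes outside chromosome 19 was -0.03, -0.04, 0.05, 0.00 and -0.05, and that of the 153 tested genes on chromosome 19 was -0.40, -0.35, -0.12, -0.19 and -0.20. With WIZ siRNA the medians were 0.01 and -0.02 outside chromosome 19 and -0.19 in both replicates on it. In all 7 replicates the median on chromosome 19 was the lower one. Of the genes outside chromosome 19, 54.7% lay below 0 with UNC0638, against 86.3% of those on chromosome 19 and 54.2% of all features. All features include those with no probe position. Other genes with a position outside chromosome 19 were below 0 in 29.0% (chromosome 4) to 65.9% (chromosome 22). On chromosome 1, which held the most of them (1339), the share was 47.0%. With G9a siRNA the medians were 0.06 and 0.09 outside and -0.04 and 0.07 on chromosome 19. No test of the difference between both gene sets was made, because the sets were chosen with results known.

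**Figure D2:**
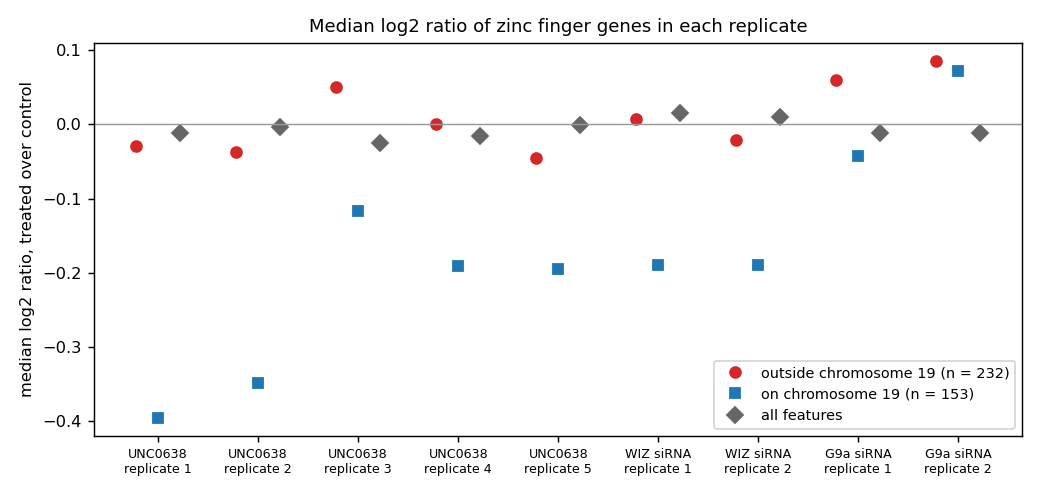
Median log2 ratio (treated over control, vertical axis) in each of the 9 replicates for the 232 zinc finger genes outside chromosome 19 (red circles), the 153 on chromosome 19 (blue squares) and all 28590 features (grey diamonds). Outside chromosome 19 the medians stay between -0.05 and 0.09, while those on chromosome 19 reach -0.40 with UNC0638.

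A further 70 tested zinc finger genes have no probe position in the files but lie outside chromosome 19 in the RefSeq gene table. Of these, 3 fell with UNC0638 and 0 rose: ZNF75A (-0.81, SE 0.06, adjusted p = 0.000207), ZNF605 (-0.71, SE 0.08, adjusted p = 0.00118) and ZNF268 (-0.53, SE 0.07, adjusted p = 0.00298), all by limma. These 3 and their neighbours without a probe position were named after their values were seen. ZNF605 and ZNF268 lie beside ZNF10 at the end of the long arm of chromosome 12, where 6 zinc finger genes stand in the RefSeq order ZNF605, ZNF26, ZNF84, ZNF891, ZNF10 and ZNF268. All 6 were below 0 with UNC0638 and 3 of them fell; ZNF26, ZNF84 and ZNF891 had -0.22, -0.15 and -0.40 and did not pass the test (adjusted p = 0.276, 0.384 and 0.0615, limma). In all 6, WIZ siRNA gave values below 0, from -0.39 (ZNF605) to -0.11 (ZNF891), none of which passed the test. With G9a siRNA the same genes had -0.0046 (ZNF268) to 0.48 (ZNF891), and ZNF891 rose (adjusted p = 0.0419, limma).

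A cluster was defined as at least 4 members on 1 chromosome with neighbouring probes within 500 kb, and 12 clusters held 79 of the tested genes. In the clusters 7 genes fell with UNC0638 and 0 rose, with a median of -0.09; outside them 8 of 153 fell and 3 rose, with a median of 0.01. No cluster had more than 1 gene that fell. Runs with fewer than 4 members were not clusters, and in these some genes that fell lay near each other. In RefSeq order, ZNF239 and ZNF32 both fell in a run of 4 tested genes with a zinc finger symbol on chromosome 10. ZNF232 and ZNF594 did so in a run of 4 on chromosome 17. The others of that run, ZFP3 (0.13) and ZNF594-DT (0.03), are not members and were above 0. In the chromosome 10 run ZNF487 was above 0 (0.09) and ZNF485 below it (-0.10). The highest share, 1 of 5 (20.0%), was found in clusters on chromosomes 1, 3 and 5, followed by 1 of 6 (16.7%) on the short arm of chromosome 16 and 1 of 7 (14.3%) on chromosomes 7 and 8.

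In the cluster at chr5:178138973-178506952 (probe positions, build 37.1), ZNF879 fell and its neighbours were closer to 0. ZNF354A had -0.32, ZNF354B -0.19, ZFP2 -0.20 and ZNF354C 0.07, and none of these passed the test. ZNF354A, a KRAB gene, split by array set, at -0.75 and -0.73 in UNC0638 replicates 1 and 2 but 0.12, -0.04 and -0.22 in replicates 3 to 5. With G9a siRNA, ZNF354A (0.63, adjusted p = 0.0386) and ZNF354B (0.49, adjusted p = 0.00569, limma) rose, while ZNF879 had 0.32 and did not pass the test.

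In the cluster at chr3:44613534-44777459, ZNF502 fell with UNC0638 and its next neighbour ZNF501 had -0.20 (adjusted p = 0.111, limma). ZNF660, ZNF35 and ZNF167 (now ZKSCAN7) had -0.10, -0.04 and 0.06. ZNF502 was also at -0.47 and -0.48 in the WIZ siRNA replicates (adjusted p = 0.425, limma), and at 0.11 and -0.05 in the G9a siRNA replicates. The brightest ZNF501 probe was above background in the treated RNA on 28.6% of the UNC0638 arrays, and its second probe gave -0.48 with UNC0638 and -0.36 with WIZ siRNA.

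In the cluster at chr7:63538596-64865861 all 7 tested genes were below 0 with UNC0638, and ZNF107 was the 1 that fell. ZNF273 had -0.24, ZNF727 -0.19, ZNF680 -0.12, ZNF138 -0.09, ZNF736 -0.04 and ZNF92 -0.01. The 2 tested genes with other symbols between the ends of this cluster had a median of 0.01. With G9a siRNA, ZNF107 (0.42), ZNF680 (0.45; second probe -0.08) and ZNF92 (0.49) rose, and the other 4 did not pass the test. In the cluster at chr8:145946970-146203189, ZNF251 fell (-0.35, adjusted p = 0.00674, limma), 5 of 7 genes were below 0, and ZNF7 had -0.20 (adjusted p = 0.0545) and ZNF16 -0.31 (adjusted p = 0.152). These 7 had a median of -0.19, and the 2 tested genes with other symbols between its ends one of -0.16.

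The cluster at chr1:247162725-247471862 held ZNF695 (-0.33, fell), ZNF124 (-0.28), ZNF669 (-0.10), ZNF670 (-0.09) and ZNF496 (-0.03), all below 0 with UNC0638. Their median was -0.10, and the 2 tested genes with other symbols between the ends of the cluster had a median of -0.54. In the cluster at chr16:3169835-3486840 all 6 tested genes were below 0, with ZNF200 at -0.33 and fallen. Its neighbours had lower or like means with more spread: ZNF205 -0.58 (replicates -1.46 to 0.08), ZNF174 -0.36 and ZNF263 -0.34, while ZNF434 (now ZSCAN32) had -0.11 and ZNF597 -0.09. ZNF75A, which stands next to ZNF263 in RefSeq and fell by 0.81, adds to this run, in which all 10 tested genes with a zinc finger symbol, the antisense gene ZNF205-AS1 among them, were below 0 and 2 fell. The 4 other tested genes between the ends of that cluster had a median of -0.02, and 1 of them fell.

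In the largest clusters by number 1 gene fell with UNC0638. At chr7:148767377-149564497, 7 of 11 genes were below 0 and ZNF783 fell (-0.27, adjusted p = 0.0356, limma). Apart from ZNF467, which is described below, the others ran from -0.24 (ZNF282 and ZNF777) to 0.03 (ZNF212). The 11 genes had a median of -0.15, and the 3 tested genes with other symbols between its ends one of -0.195. At chr16:30410539-31927638 all 10 genes were below 0, with a median of -0.06, and 0 passed the test, while the 25 other genes between its ends had a median of -0.09. The lowest was ZNF843 at -0.72 (adjusted p = 0.237, limma), with 0.06, 0.11, -2.33, -1.29 and -0.13 in UNC0638 replicates 1 to 5.

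By chromosome, the share of genes below 0 with UNC0638 ranged widely. On chromosome 16 it was 21 of 25 (84.0%), on chromosome 8 it was 11 of 13, on chromosome 5 it was 8 of 10 and on chromosome 7 it was 21 of 29 (72.4%). The other genes with a probe position on chromosomes 16, 8, 5 and 7 were below 0 in 62.4%, 47.1%, 39.8% and 47.5%. On chromosome 11, 0 of 8 zinc finger genes were below 0 (median 0.11), against 51.7% of the other genes there. Their medians in UNC0638 replicates 1 to 5 were 0.04, -0.025, 0.38, 0.14 and 0.09, with replicate 3 the highest. Their probes had a median of 39.2% G and C, lower than that of the other genes on chromosome 11. The part of base content in this difference was not tested. On chromosome 15, 0 of 5 zinc finger genes were below 0 (median 0.06). On chromosome 6, 5 of 16 were below 0, with a median of 0.09, and 0 passed the test. The plot by chromosome gives each gene.

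**Figure D3:**
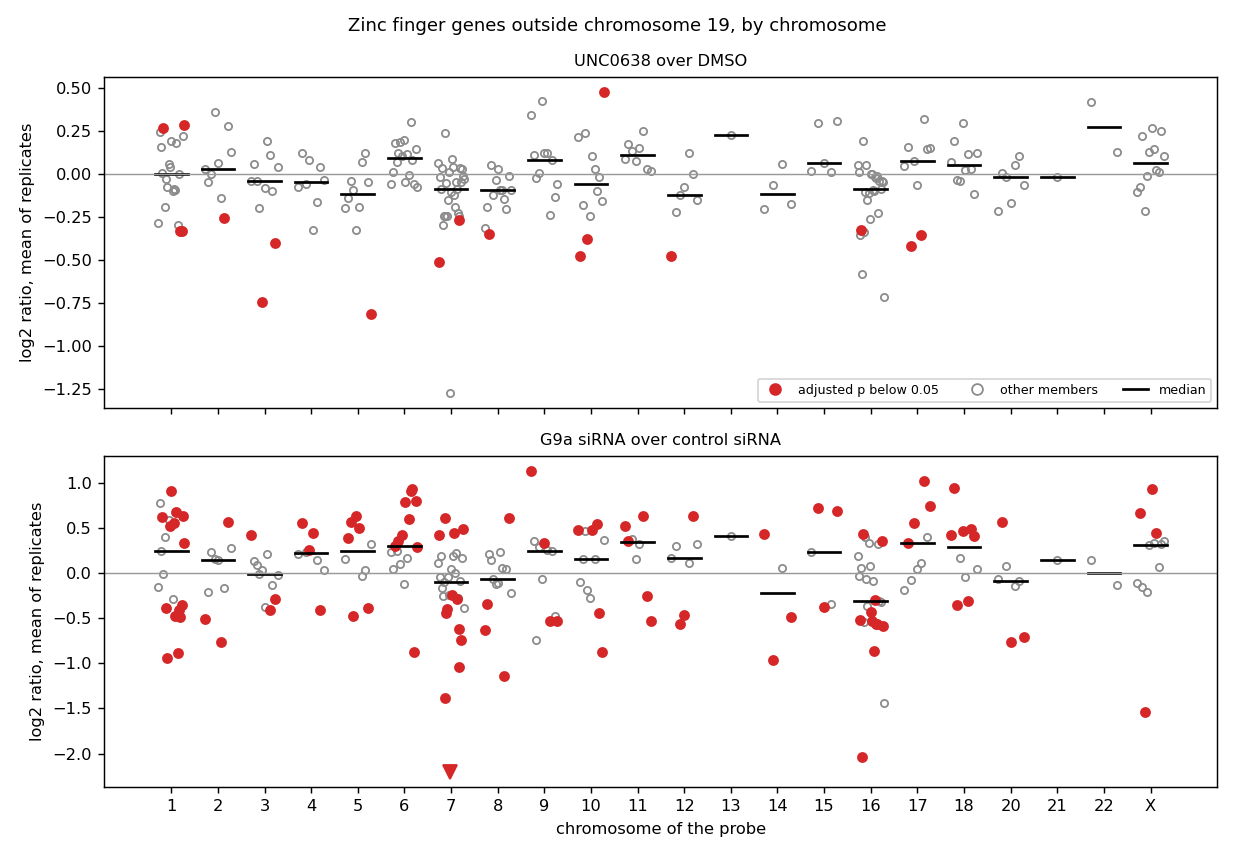
Mean log2 ratio (vertical axis) of each of the 232 genes except ZNF713, whose probe matches 3 chromosomes, by chromosome (horizontal axis), with UNC0638 above and G9a siRNA below. Red symbols passed the test, open symbols did not, black bars are chromosome medians, and the triangle on chromosome 7 stands for ZNF467, whose value of -4.95 lies below the axis.

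WIZ siRNA changed 1 of the 232 genes, ZNF594 at 17p13. Over all features 0.539% fell and 0.0804% rose, against 0.431% and 0.0% of these genes. ZNF594 had -0.86 and -0.96 where Cy3 labelled the treated RNA and -0.43 on both arrays where Cy5 did, and its replicate means were -0.65 and -0.70 (mean -0.67, SE 0.10, adjusted p = 0.0265, limma). It was also among the genes that fell with UNC0638 (-0.36), and had 0.23 and -0.02 with G9a siRNA. The call was lost without either WIZ siRNA replicate and without UNC0638 replicate 1, 2 or 4. Its second probe gave -0.30 with WIZ siRNA. Its neighbour ZNF232, which fell with UNC0638, had -0.10.

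Of the 15 genes that fell with UNC0638, 14 were below 0 on average with WIZ siRNA, with a median of -0.23, against 51.7% of all 232 genes. In both WIZ siRNA replicates 13 of the 15 were below 0, against 97 of the 232. After ZNF594, the lowest of them were ZNF239 (-0.53 and -0.54), ZNF879 (-0.45 and -0.50), ZNF502 and ZNF717 (-0.38 and -0.33), none of which passed the test. The replicate values are means of both dye orientations, which disagreed for several of these genes. ZNF879 had -0.84 and -0.78 in Cy3 and -0.06 and -0.22 in Cy5. ZNF239 had -0.90 and -0.93 in Cy3 and -0.17 and -0.14 in Cy5. For ZNF107 the sign turned, with -0.61 and -0.71 in Cy3 and 0.37 and 0.14 in Cy5. It also turned for ZNF200 (below 0 in Cy3) and ZNF232 (below 0 in Cy5). The 3 genes that rose with UNC0638 were below 0 in both WIZ siRNA replicates. Without adjustment, 20 of the 232 genes were below 0 and 10 above it at p below 0.05 with WIZ siRNA. Over all 28590 features 1460 were below 0 and 852 above it at the same threshold.

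The contrast of WIZ siRNA minus UNC0638, which compares 72 h with 48 h, called 0 of the 232 genes by limma. Over all features 0.0944% were called higher and 0.749% lower. Without adjustment 19 of the 232 genes were higher and 17 lower at p below 0.05, against 1508 and 1713 of the 28590 features. A missed threshold does not show that both treatments acted alike on these genes. Fitted on array set 1 alone, where the dyes are balanced, the contrast called 17 genes (11 higher, 6 lower), and WIZ siRNA itself called 33 (12 up, 21 down). For these set 1 fits the shares of all features called are not given here.

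G9a siRNA gave the most calls: 57 genes rose and 52 fell of 232. Over all features 15.1% rose and 18.4% fell, against 24.6% and 22.4% of these genes, and their median was 0.08, against -0.01. Among probes with over 40% and up to 45% G and C, 14 of 91 genes rose and 23 fell. Of the 5060 features with a sequence in this class, 845 rose and 1024 fell. With over 35% and up to 40%, 18 of 62 genes rose and 7 fell, against 816 and 320 of 2839 features. With median centring in place of loess 32 rose and 71 fell. The shares of all features called under this setting, and without 1 replicate, are not given here. These counts therefore cannot be set against the general rate. These counts rest on 2 replicates that do not weigh alike: without G9a siRNA replicate 2 the count was 0, and without replicate 1 it was 70 (35 up, 35 down). The SD of the log2 ratios over the 232 genes was 0.52 and 0.67 in the G9a siRNA replicates, against 0.21 to 0.32 in UNC0638 replicates 1, 2, 4 and 5 and 0.20 in both WIZ siRNA replicates. UNC0638 replicate 3 had 0.52. The WIZ siRNA replicates and UNC0638 replicates 1 and 2 are means of 2 dye-swapped arrays, and the other replicates are single arrays. On single arrays the SD was 0.29 to 0.45 with WIZ siRNA and 0.25 to 0.28 for UNC0638 replicates 1 and 2.

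Several measurements moved with the G9a siRNA values. The base content of the probe did: Spearman's rho between the percentage of G and C and the log2 ratio was -0.43 and -0.45 over the 232 genes in the G9a siRNA replicates, -0.34 in UNC0638 replicate 3, 0.19, -0.13, -0.04 and -0.28 in UNC0638 replicates 1, 2, 4 and 5, and 0.23 and 0.22 with WIZ siRNA. Of the 55 genes with at most 35% G and C, 25 rose and 4 fell (median 0.29), while of the 19 with over 50% and up to 55%, 0 rose and 15 fell (median -0.59). Over the features with a probe sequence the medians of these classes were 0.26 and -0.37. In the first class 1068 of 2521 features rose and 181 fell, and in the second 24 of 2580 rose and 1354 fell. With the trend on base content removed over the 13847 features with a probe sequence, 50 genes rose and 51 fell, and the median was 0.01. The shares of all features called after this step are not given here.

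UNC0638 replicate 3, treated with the compound and not with siRNA, had a like profile. Its log2 ratios over the 232 genes correlated with those of the G9a siRNA replicates at Pearson's r of 0.87 and 0.82, against 0.13, 0.21, 0.55 and 0.20 with UNC0638 replicates 1, 2, 4 and 5. Over all features the values were 0.88 and 0.84 with G9a siRNA. It shares array set 2 and the dye orientation with the G9a siRNA arrays. Second probes were a further measurement: for 74 of the genes another probe above background gave 87 pairs, and the brightest and the other probe correlated at r = 0.13 with G9a siRNA, against 0.47 with UNC0638 and 0.52 with WIZ siRNA. The G9a siRNA pairs include the extreme one of ZNF467, at -4.95 and -0.03. Both probes had the same sign in 53 of the 87 pairs with G9a siRNA, 61 with UNC0638 and 58 with WIZ siRNA. Whether these features of the arrays account for the calls was not tested.

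**Figure D4:**
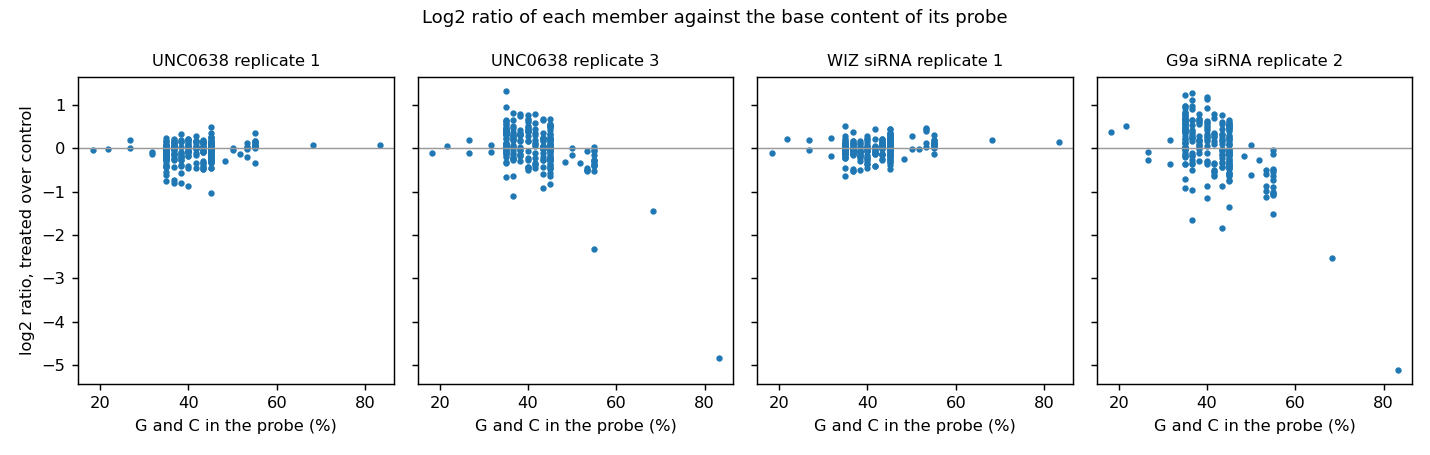
Log2 ratio (treated over control, vertical axis) of each of the 232 genes against the percentage of G and C in its probe (horizontal axis) in 4 replicates. In UNC0638 replicate 3 and G9a siRNA replicate 2 the probes rich in G and C lie lowest, with ZNF467 at -4.84 and -5.12, and in UNC0638 replicate 1 and WIZ siRNA replicate 1 they lie near 0.

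ZNF467, a C2H2 gene studied in adipocyte and bone differentiation, shows this most. It had -4.78 and -5.12 with G9a siRNA (mean -4.95, SE 0.96, adjusted p = 0.00517, limma), and 0.09, -0.17, -4.84, -1.21 and -0.23 in UNC0638 replicates 1 to 5. In the WIZ siRNA replicates it had 0.14 and 0.20. Its probe is the one with 83.3% G and C shown above, and its second probe gave -0.03 with G9a siRNA. ZNF205, whose probe holds 68.3% G and C, followed the same order, with -1.53 and -2.54 with G9a siRNA, -1.46 and -1.07 in UNC0638 replicates 3 and 4, and 0.08 and -0.16 in replicates 1 and 2.

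The other large falls with G9a siRNA were ZNF275 (-1.25 and -1.83), ZNF282 (-1.13 and -1.64), ZNF696 (-0.92 and -1.36), ZNF783 (-0.93 and -1.15), ZNF219 (-0.85 and -1.08) and ZNF593 (-0.74 and -1.13). ZNF282 and ZNF783 belong to the chromosome 7 cluster that also holds ZNF467, where 5 of 11 genes fell and 0 rose. ZNF783 was the 1 of these that also fell with UNC0638, and it had -0.37 and -0.31 with WIZ siRNA. ZNF275 has a second probe, which gave -0.26. In UNC0638 replicate 3, ZNF275, ZNF282 and ZNF696 had -0.93, -0.63 and -0.82, and in replicate 1 they had 0.04, 0.06 and 0.00.

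The largest rises were ZFP37 (1.03 and 1.23), ZNF624 (0.86 and 1.18), ZNF236 (0.90 and 0.98), ZNF451 (0.72 and 1.15), ZNF449 (0.57 and 1.29), ZNF323, now ZSCAN31 (0.82 and 0.99), ZNF644 (0.82 and 0.99) and ZSCAN12 (0.47 and 1.13). Their probes held 35% to 40% G and C. UNC0638 replicate 3 gave 0.52 to 0.95 for the same 8 genes, while WIZ siRNA gave -0.18 to 0.16. A second probe of ZNF451 gave -0.18 with G9a siRNA. Of the 109 genes changed with G9a siRNA, 40 had another probe above background, and for 23 of these all probes had the same sign. ZNF451 encodes a SUMO ligase and ZNF449 a SCAN-domain protein.

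By chromosome, chromosome 6 had 9 rises and 1 fall with G9a siRNA among 16 genes (median 0.29), chromosome 17 had 4 rises and 0 falls among 9 (median 0.34), and chromosome 16 had 2 rises and 9 falls among 25 (median -0.32). The other genes with a probe position had medians of 0.02, -0.14 and -0.17 on chromosomes 6, 17 and 16. The median base content of the zinc finger probes was 40%, 35% and 43.3% on the same chromosomes. In the chromosome 6 run at chr6:28057187-28347719, which holds ZNF165, ZSCAN16, ZKSCAN4, ZKSCAN3 and ZSCAN12 among 8 genes, 5 rose and 0 fell with G9a siRNA, and 1 of 8 was below 0 with UNC0638. The 1 tested gene with another symbol between its ends also rose with G9a siRNA (0.77) and had 0.47 with UNC0638. This run was singled out after its values were seen. In the large run on chromosome 16 described above, 0 rose and 5 of 10 fell, as did 16 of the 25 other genes between its ends.

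Grouped by role, the 4 partners of G9a and GLP were all tested. ZNF644, which binds both enzymes and targets them to DNA, rose with G9a siRNA (mean 0.90, SE 0.12, adjusted p = 0.0029, limma) and had 0.18, 0.12, 0.57, 0.01 and 0.09 with UNC0638. Its second probe gave 0.03 with G9a siRNA. ZNF518A rose with UNC0638, and had 0.38 and 0.34 with G9a siRNA (adjusted p = 0.117, limma). ZNF518B did not pass the test in any treatment, with -0.06, -0.19 and 0.23 for UNC0638, WIZ siRNA and G9a siRNA. ZNF462, a large protein needed in neural development, had 0.50, 0.44, 0.13, 0.27 and 0.79 with UNC0638 (adjusted p = 0.169), and its WIZ siRNA replicates disagreed, at -0.13 and -1.37.

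Members of other chromatin complexes were tested for 6 of 8 genes, and with G9a siRNA 1 rose and 4 fell, against 15.1% and 18.4% of all features. ZNF217, part of CoREST-type complexes, rose (0.34 and 0.79 in the G9a siRNA replicates), but its second probe gave -0.27. ZNF687 and ZNF512B fell, with means of -0.88 and -0.71, as did ZNF335 (-0.76), a subunit associated with H3K4 methyltransferase complexes. ZNF827 had -0.41 (adjusted p = 0.0148, limma), but its probe was not above background in the treated RNA of either G9a siRNA array. The size of its fall is therefore uncertain. ZNF711 had 0.32 and did not pass the test. With UNC0638 and with WIZ siRNA none of the 6 passed the test, and the highest mean was that of ZNF827 with WIZ siRNA (0.42, adjusted p = 0.156, limma).

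All 10 genes for RNA-binding or ribosome-related proteins were tested and all 10 changed with G9a siRNA, 4 up and 6 down, where 15.1% of all features rose and 18.4% fell, and 24.6% and 22.4% of the 232 genes. With UNC0638 and WIZ siRNA 0 of the 10 passed the test. ZFP36L1 (0.43), ZNF207 (0.34), ZNF326 (0.62) and ZNF638 (0.56) rose. Other probes of ZNF326 gave -1.19 and -0.03, opposite to the brightest, while those of ZFP36L1, ZNF207 and ZNF638 gave 0.87, 0.16 and 0.36. ZNF593 (-0.94), ZNF598 (-0.53), ZFP36L2 (-0.51), ZNF346 (-0.48), ZNF385A (-0.46) and ZNF622 (-0.39) fell. A second probe of ZNF346 gave 0.14, and that of ZNF598 gave -1.41. ZFP36L1 and ZFP36L2 both promote decay of AU-rich mRNA; ZFP36L1 had 0.32 and 0.55 in the G9a siRNA replicates, and ZFP36L2 had -0.10 and -0.91, so that its fall was carried by replicate 2. The probe listed for ZNF598, an E3 ligase that senses collided ribosomes, lies on chromosome 9 in the files, while RefSeq places the gene on chromosome 16, so its identity is uncertain.

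Among activators at promoters, ZNF143 (0.36) and ZNF148 (0.42; second probe -0.05) rose and ZNF76 (-0.87), a close relative of ZNF143, fell with G9a siRNA. ZNF263 had -0.54 (adjusted p = 0.0626, limma). ZNF76 varied widely with UNC0638, from -0.79 in replicate 5 to 0.35 in replicates 1 and 4. Of the developmental genes, ZNF521 (0.40; second probe -0.03) and ZNF365 (0.48; second probe 0.22) rose with G9a siRNA, while ZNF423, a cofactor in neural and fat cell lineages, had -0.36 and ZNF804A 0.28 and did not pass the test. ZNF365 had -0.53 and -0.42 with WIZ siRNA (adjusted p = 0.136, limma). ZFP57, the keeper of imprints, and ZNF281 did not pass the test in any treatment, and ZFP57 was below background in both channels of the G9a siRNA arrays.

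**Figure D5:**
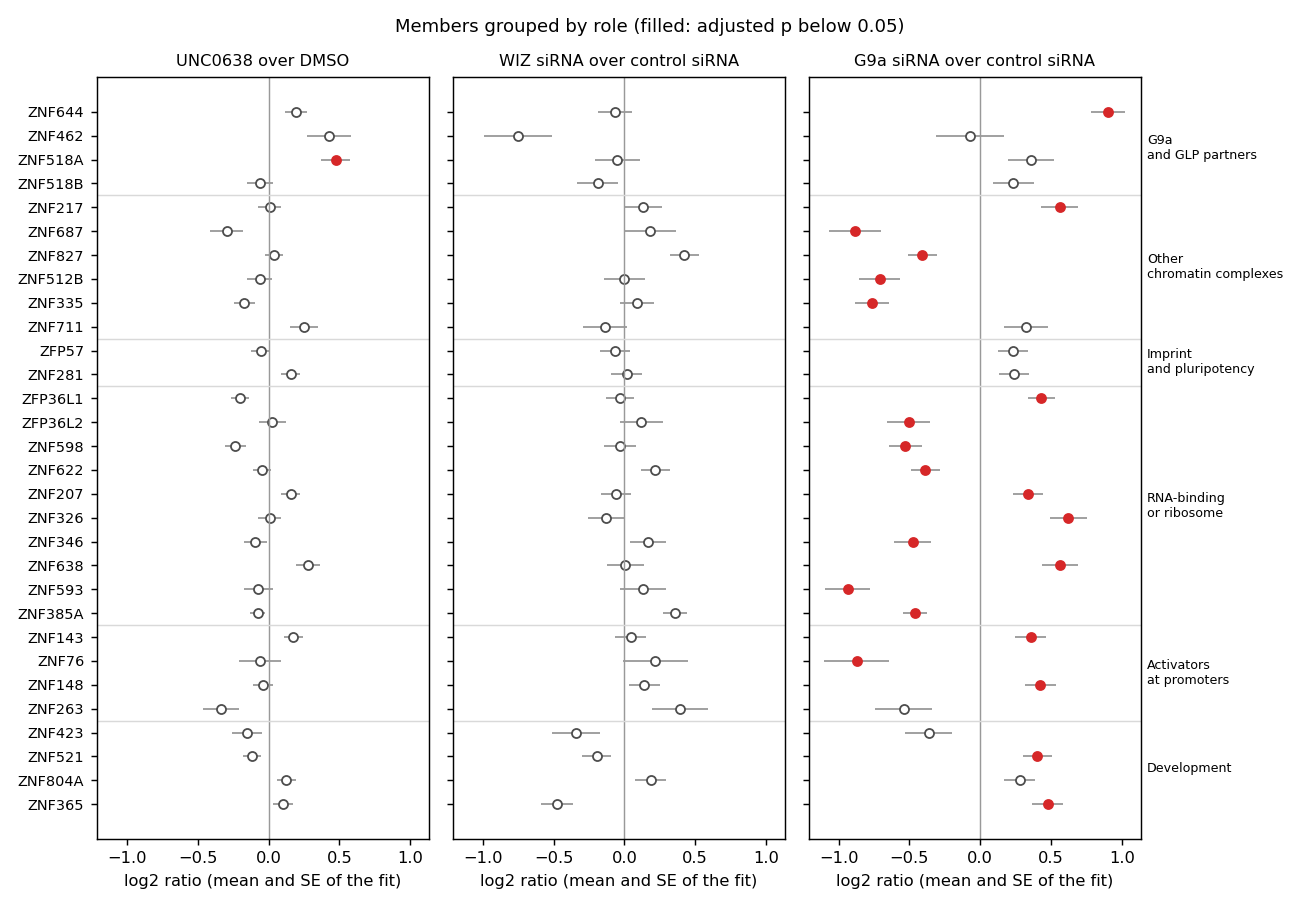
Log2 ratio (horizontal axis, mean with the SE of the fit) of the 30 tested genes in the 6 role lists, with UNC0638, WIZ siRNA and G9a siRNA from left to right. Filled symbols passed the test: 1 gene (ZNF518A) with UNC0638, 0 with WIZ siRNA, and 21 with G9a siRNA.

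G9a siRNA minus UNC0638, again 72 h against 48 h, was higher for 32 genes and lower for 23, which is 13.8% and 9.91% of these genes against 6.12% and 6.68% of all features. With median centring in place of loess the balance turned to 10 higher and 39 lower. The shares of all features called under this setting, without 1 replicate or in 1 array set are not given here. The largest positive contrasts were ZNF879 (1.13, SE 0.20), ZNF354A (0.95), ZNF107 (0.94), ZNF451 (0.85) and ZNF292 (0.83), of which ZNF879 and ZNF107 fell with UNC0638. The largest negative ones were ZNF205 (-1.45), ZNF275 (-1.33), ZNF282 (-1.14), ZNF696 (-0.99) and ZNF219 (-0.90). The count was 0 without G9a siRNA replicate 2, 20 without replicate 1, 12 to 16 without UNC0638 replicate 1, 2 or 4, 13 without either WIZ siRNA replicate and 100 without UNC0638 replicate 3. Fitted on array set 2 alone it was 0. Of the 15 genes that fell with UNC0638, 4 fell and 1 rose with G9a siRNA. Of the 232 genes 22.4% fell and 24.6% rose with it, and of all features 18.4% and 15.1%. On average 8 of the 15 were below 0 with G9a siRNA, against 44.0% of the 232 genes.

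The machinery through which KRAB proteins act was measured with 22 genes that are no members. With UNC0638, TASOR, a subunit of the HUSH complex, rose (0.33, adjusted p = 0.0319) and MORC2, which works with HUSH, fell (-0.28, adjusted p = 0.0465, limma). The other 20 did not pass the test, among them TRIM28 (-0.09) and SETDB1 (-0.03). With WIZ siRNA WIZ itself fell and 0 rose. With G9a siRNA 6 of the 22 rose and 4 fell, where 15.1% and 18.4% of all features did, among the falls TRIM28 (-0.70), SUV39H1 (-0.87), MORC2 (-0.42) and EHMT2 itself.

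The 250 bases before the RefSeq start of 2 genes with the largest falls are shown, with CpG dinucleotides in capitals, since CpG-rich starts are frequent in this gene family.
ZNF879: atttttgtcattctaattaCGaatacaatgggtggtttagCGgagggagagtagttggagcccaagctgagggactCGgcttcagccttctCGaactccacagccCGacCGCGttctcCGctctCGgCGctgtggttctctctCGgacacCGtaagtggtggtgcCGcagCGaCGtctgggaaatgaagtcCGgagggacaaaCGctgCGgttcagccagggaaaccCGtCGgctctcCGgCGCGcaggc
ZNF502: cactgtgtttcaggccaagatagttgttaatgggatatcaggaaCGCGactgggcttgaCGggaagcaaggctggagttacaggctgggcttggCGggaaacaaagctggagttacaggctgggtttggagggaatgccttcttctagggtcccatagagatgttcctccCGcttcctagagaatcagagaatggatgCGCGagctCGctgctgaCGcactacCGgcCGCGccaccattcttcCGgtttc
The window of ZNF879 (GRCh38.p14, chr5:179023554-179023803, plus strand) holds 23 CpG and that of ZNF502 (chr3:44712410-44712659, plus strand) holds 13. A promoter sequence was found for 186 of the 232 genes. The median window held 19.5 CpG, against 11 over 27305 RefSeq promoters, and 24.0 for the 14 matched genes that fell with UNC0638. The letters CCGGAAG, a core that ETS factors bind, were found on either strand in 31.7% of the 186 windows (59), in 5 of the 14, in 31.2% of chromosome 19 zinc finger genes and in 8.82% of all promoters. The window of ZNF502 holds this motif and that of ZNF879 does not. The match is a description of letters.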

How the data were processed

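Spot and background intensities of 13 arrays were used as the authors deposited them, uncorrected pixel means of each spot and medians of its surroundings in either channel, per the file headers. Beside them stands the authors' log2 ratio, made by background subtraction and a brightness-dependent normalization, per the file headers. A deposited table of the whole series holds the authors' log10 ratios, which run as control over treated on the 8 arrays of set 1 and treated over control on the 5 of set 2. This direction was set from the correlation with each array's own ratio, its column medians ran from -0.01 to 0.00818, its log10 scale was read from the slope against that ratio, while its centring, the software and the scanner settings are not given in the sources used here.

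Background was corrected with normexp (offset 50) over 62976 spots, then each array was normalized by loess, in which 4259 control spots had weight 0. Spots of 1 probe were averaged, arrays were turned to treated over control, and dye-swapped arrays of 1 replicate were averaged, giving 9 replicates. The labels do not say that replicates came from separate cultures, so the p-values measure the spread between these samples, which may be technical. A probe was kept if it stood over 2.6 background SDs above the background median on at least 50% of the arrays of 1 RNA group, and the brightest probe stood for a gene. The 9 replicates entered 1 limma fit (version 3.58.1, R 4.3.3) with a mean per treatment, with 6 residual and 3.32 prior degrees of freedom. P-values were adjusted by Benjamini-Hochberg over 28590 features, and genes under 0.05 are called changed. The 5 UNC0638 replicates give most of the spread that the siRNA tests use. SE is that of the fit and SD that between replicates. The number of arrays limits the precision. Slide and scan batch are not given, and the array set (lowest Cy3 background pixel SD of 4 to 5, or 11) took their place. WIZ siRNA and G9a siRNA each lie in 1 set, so set and treatment cannot be told apart for them. The fit was tested on simulated data.

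Named genes were the 12 largest falls and rises with UNC0638 in 1 direction in all 5 replicates, the 8 largest per siRNA, the 5 largest per contrast, the role lists and the described clusters. The members and lists were chosen with earlier results of these data known. Of 232 genes, 223 have 1 probe position and gene on the RefSeq chromosome. ZNF257, ZNF713 and ZNF598 have probes placed elsewhere than in RefSeq. Symbols are those of the array files. 1 marker of another cell type is not reported here.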

Additional observations from a re-analysis of the deposited data

Results flagged for a closer look

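Among 94 named genes whose 5 UNC0638 replicates were examined, 8 had 1 replicate whose gap to the nearest other, divided by the range, exceeded Dixon's 95% critical value for 5 samples (0.71). Chance flags about 1 gene in 20 by this measure. In replicate 3, ZNF467 had a log2 ratio of -4.84 while the others lay between -1.21 and 0.09, ZNF711 had 0.79 against -0.0014 to 0.17, ZNF736 had 0.44 against -0.24 to -0.10, and ZNF362 had 0.50 against 0.18 to 0.23. In replicate 5, ZNF252 had 0.27 against -0.04 to 0.04, ZNF365 had 0.37 against 0.0053 to 0.08, and ZNF695 had -0.0479 against -0.45 to -0.34. In replicate 1, ZNF335 had 0.18 against -0.34 to -0.20.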

How the results depend on the processing

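For UNC0638 (18 of 232 genes changed), the authors' log2 ratio called 10, 11 genes passed in the authors' deposited table, array set 1 alone called 34, array set 2 alone 0 and a fit on the UNC0638 replicates alone 9. For WIZ siRNA (1 changed), the authors' log2 ratio and the deposited table called 0, array set 1 alone 33, its own replicates alone 79, a dye term over 13 arrays 10, removal of the base content trend 3, and members added by their RefSeq chromosome 2. For G9a siRNA (109 changed), the deposited table called 66, array set 2 alone 68 and the dye term 42. For WIZ siRNA minus UNC0638 (0), array set 1 alone called 17, the dye term 5 and the trend removal 1. For G9a siRNA minus UNC0638 (55), the authors' log2 ratio called 17, 23 passed in the deposited table and array set 2 alone called 0. Median centring in place of loess gave 32 up and 71 down with G9a siRNA and 10 higher and 39 lower for G9a siRNA minus UNC0638. Leaving out 1 replicate gave 11 to 18 genes for UNC0638, 0 to 3 for WIZ siRNA, 0 to 124 for G9a siRNA, 0 to 1 for WIZ siRNA minus UNC0638 and 0 to 100 for G9a siRNA minus UNC0638. With the base content trend removed, ZNF496 had 0.0439 with G9a siRNA, against -0.39, and ZNF517 had 0.32, against -0.11; the probe of ZNF496 was not above background in the treated RNA, and that of ZNF517 in neither RNA, on either array. Over the 81 named results that passed the test, 1433 recomputed values kept direction and call and 323 lost the call; over the 204 that did not, 112 passed. The causes were not tested, and the shares of all features called under these settings are not given here. A replicate block gave 18, 1, 112, 0 and 69 genes for the 3 treatments and 2 contrasts in the order above. Same-numbered replicates deviated from their group means with correlations of -0.29 to 0.37, so the numbers were not taken to pair the samples. The 2 alternatives on membership were chosen after seeing the data, and grouping by protein motif was not run. Dim probes limit G9a siRNA most: 19 of the 232 genes were not above background in treated or control RNA on either array.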
